A study of Neocallimastix californiae and Anaeromyces robustus with 43 samples.

Results

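Messenger RNA of the anaerobic gut fungus Neocallimastix californiae, labelled G1, was compared between growth on Avicel, a microcrystalline cellulose, and growth on glucose, the sugar that cellulose is built from. The comparison used the 3 libraries labelled Avicel and the 3 labelled glucose of this fungus, chosen by their labels alone. They are 6 of the 23 libraries of N. californiae, which cover 8 carbon sources, and of 43 libraries in the study, whose other libraries come from another gut fungus. All 6 came from whole organisms in Medium C, in cultures of about 10 ml at 39 °C, harvested in mid-logarithmic growth at a gas pressure of at least 5 psi, and beside the designation G1, which all 6 share, the labels name no genotype, and no treatment but the carbon source. The design text asks how the carbon source regulates transcripts, and calls the Avicel condition cellulose. The labels do not say whether replicates were separate cultures, so the p-values rest on a spread among libraries that may be technical only.

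Anaerobic gut fungi live in the digestive tract of large herbivores and colonise plant fibres. They secrete cellulases, hemicellulases and accessory enzymes, many of which carry dockerin domains and assemble on scaffoldin proteins into cellulosomes. Growth on crystalline cellulose requires these enzymes, which cut it to cellobiose and glucose, whereas glucose is taken up directly. The deposited tables do not pair transcript identifiers with gene names, functions or sequences, so no transcript is assigned to an enzyme class here, and the labelled organism could not be checked against marker genes.

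The Avicel libraries held 5102446, 4833975 and 6615754 expected counts, and the glucose libraries held 3334212, 10816458 and 4686227. Expected counts are estimates of reads per transcript, and reads that fit several transcripts are divided between them. The Avicel libraries resembled each other closely, with Spearman correlations across transcripts of 0.96 to 0.97. Among the glucose libraries, replicates 1 and 2 correlated at 0.97, whereas replicate 3 correlated at 0.93 and 0.94 with them. Glucose replicate 3 also lay nearer to Avicel, at 0.84 with each Avicel library, against 0.76 for glucose replicate 1 and 0.77 for glucose replicate 2. It was the glucose library nearest to Avicel for 55.8% of the transcripts called higher below and 77.5% of those called lower. No library looked like a repeat deposit of another, with a chi-square statistic per degree of freedom of 5.33 to 8.08 within Avicel and 4.05 to 28.4 within glucose.

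On Avicel, 2228 of 14800 tested transcripts were higher than on glucose, 15.1% of those tested, and 3526 were lower, 23.8% of those tested. The calls were made at an adjusted p under 0.05 in the edgeR quasi-likelihood test, fitted over all 23 libraries of the fungus. Without glucose replicate 3 the counts were 2139 higher and 3515 lower. The sides differed in size of change as well as in number. The transcripts called higher had a median log2 fold change of 1.17, and 310 of them changed by 8-fold or more. The transcripts called lower had a median of -2.67, and 1366 of them changed by 8-fold or more. Changes under 2-fold made up 884 of the higher calls and 438 of the lower calls. These sizes cover called transcripts only, and a rare transcript needs a larger change to be called. Against a 2-fold threshold, 662 transcripts were called higher (4.47%) and 2129 lower (14.4%). Without glucose replicate 3 the medians were 1.31 and -2.89, 352 higher and 1634 lower calls reached 8-fold, and the 2-fold threshold gave 714 and 2222.

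Which side held more calls depended on scaling. Library-scaled counts (CPM) were based on TMM, which aligns each library to 1 standard library, and the median log2 fold change of all tested transcripts was -0.08. Scaling by library size alone moved that median to -0.55 and gave 1002 higher and 5340 lower. With alfalfa stems replicate 1 as the TMM standard, in place of Avicel replicate 2, the median was 0.12 and 3152 transcripts were higher and 3048 lower. That change of standard shifted every log2 fold change by 0.20, and the lower side remained the larger one against the 2-fold threshold, at 1879 transcripts against 820 higher. The larger side also turned without Avicel replicate 2, at 2715 higher and 2650 lower, and with counts summed per locus, at 3169 and 3065. With only the Avicel and glucose libraries in the filter and fit, the sides lay closer together. There 2670 of 12249 tested transcripts were higher and 2979 lower, and the median log2 fold change was 0.02. Every transcript called in both a transcript-level alternative and the edgeR test above had the same direction in both. Being called in both, from the same counts, itself favours this. Of the 5754 calls, 5517 were also called by DESeq2 and 4528 with library size alone.

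The transcripts called higher were more abundant than those called lower, on both carbon sources. The median transcript called higher had 36.0 CPM on Avicel and 14.3 CPM on glucose. The median transcript called lower had 1.29 CPM on Avicel and 7.54 CPM on glucose. The 3 Avicel and 3 glucose libraries did not overlap for 2193 of the transcripts called higher and 3422 of those called lower, which the call itself favours, and for 8185 (55.3%) of all tested transcripts. Without glucose replicate 3 the medians were 39.2 CPM on Avicel and 13.8 CPM on glucose for the higher set, and 1.28 CPM on Avicel and 8.62 CPM on glucose for the lower set. Transcripts with no count in 1 condition were few. Those called higher without a count on glucose numbered 44, with mean levels of 0.336 to 30.03 CPM on Avicel, and those called lower without a count on Avicel numbered 93, with 0.402 to 29.5 CPM on glucose. Among all 14800 tested transcripts, called or not, 95 had no count on glucose and 186 had none on Avicel.

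**Figure D1:**
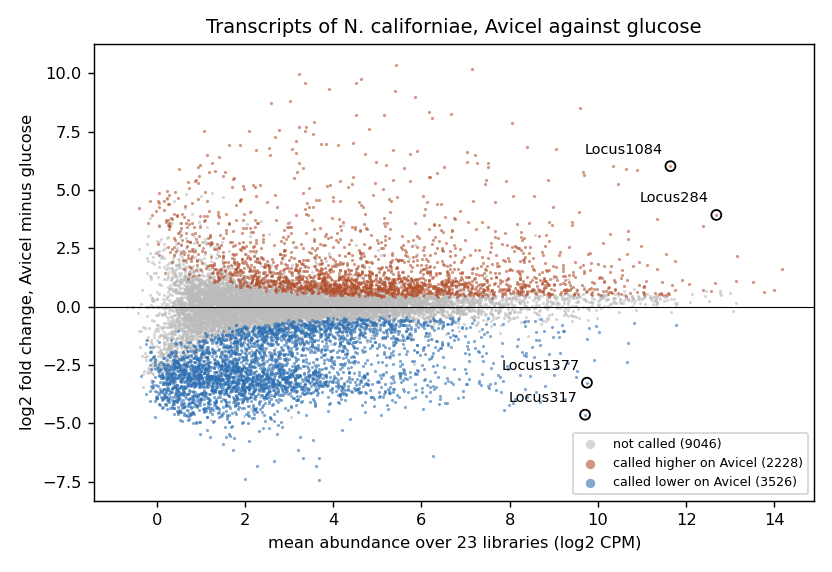
Each point is 1 of the 14800 tested transcripts, by its mean abundance over 23 libraries (log2 CPM) and its log2 fold change on Avicel against glucose. Transcripts called higher are red, those called lower blue and the rest grey, and circles mark the 4 named transcripts. A second cloud of rarer transcripts lies below the main one, around a log2 fold change of -3.

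The transcripts named here were picked among called transcripts that changed at least 2-fold, were the only version of their locus and had no overlap between the groups, so the absence of overlap is a condition of the choice. Of these, Locus284v1rpkm843.71 and Locus1084v1rpkm111.53 had the largest gains in mean CPM, and ranked 2 and 4 among all tested transcripts. Locus284v1rpkm843.71 had 13346, 12642 and 13149 CPM on Avicel, against 815, 657 and 1099 CPM on glucose. The Avicel libraries lay close together, and glucose replicate 3 was the highest of the glucose libraries. It averaged 13046 ± 363 CPM on Avicel and 857 ± 224 CPM on glucose (SD, n = 3 each), and its log2 fold change was 3.93 ± 0.30 (SE, adjusted p = 7.03e-09, edgeR quasi-likelihood test). Per transcript length it stood at 1828 ± 68.8 TPM on Avicel and 163 ± 23.7 TPM on glucose, which ranked it 142 and 784 among all transcripts.

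Locus284v1rpkm843.71 was also high on the other cellulose-bearing carbon sources. It averaged 9202 ± 2360 CPM on corn stover, 10171 ± 3327 CPM on switchgrass (n = 2), 6580 ± 1865 CPM on reed canary grass and 7940 ± 738 CPM on alfalfa stems. Cellobiose, the disaccharide released from cellulose, gave 5152 ± 1728 CPM, and maltose, the disaccharide of starch, gave 838 ± 157 CPM (SD, n = 3 where not stated). Avicel exceeded maltose by a log2 fold change of 3.96 ± 0.30 (adjusted p = 6.60e-09), cellobiose by 1.34 ± 0.27 (adjusted p = 0.00207) and reed canary grass by 0.99 ± 0.27 (adjusted p = 0.0105). Against corn stover, switchgrass and alfalfa stems the adjusted p was 0.140, 0.428 and 0.0554 in the same edgeR test, which did not pass. The cellobiose mean lay between those of Avicel and maltose.

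Locus1084v1rpkm111.53 was high on Avicel and low on cellobiose. It had 9629, 9870 and 9641 CPM on Avicel, against 96.5, 216 and 136 CPM on glucose. The glucose libraries varied more among themselves, in proportion, than the Avicel libraries, and the highest of them was replicate 2. Its means were 9714 ± 136 CPM on Avicel and 149 ± 60.8 CPM on glucose (SD, n = 3 each), and its log2 fold change was 6.02 ± 0.37 (SE, adjusted p = 3.08e-10, edgeR quasi-likelihood test). In TPM it averaged 2108 ± 169 on Avicel and 45.7 ± 23.3 on glucose, at ranks 121 and 1638.

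On cellobiose Locus1084v1rpkm111.53 averaged 123 ± 23.3 CPM, and Avicel exceeded it by a log2 fold change of 6.30 ± 0.37 (adjusted p = 8.88e-10, edgeR). It averaged 281 ± 119 CPM on maltose and 625 ± 151 CPM on alfalfa stems. The grasses were far higher, at 6414 ± 1769 CPM on corn stover, 5145 ± 506 CPM on switchgrass (n = 2) and 3770 ± 548 CPM on reed canary grass. Avicel exceeded alfalfa stems by a log2 fold change of 3.96 ± 0.34 (adjusted p = 2.76e-07) and reed canary grass by 1.37 ± 0.30 (adjusted p = 0.00225), whereas the differences from corn stover and switchgrass did not pass (adjusted p = 0.118 and 0.0550, edgeR).

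The losses, chosen in the same way, were smaller in absolute terms. Locus317v1rpkm739.78 had 88.8, 65.9 and 64.6 CPM on Avicel, against 1669, 1407 and 2365 CPM on glucose. The Avicel libraries were alike, and glucose replicate 3 was the highest glucose library. It averaged 73.1 ± 13.6 CPM on Avicel and 1814 ± 495 CPM on glucose (SD, n = 3 each), and its log2 fold change was -4.63 ± 0.45 (SE, adjusted p = 2.98e-07, edgeR quasi-likelihood test). Its level was 10.9 ± 1.68 TPM on Avicel and 366 ± 57.6 TPM on glucose.

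Avicel gave the lowest mean of Locus317v1rpkm739.78 among the 8 carbon sources. Corn stover gave 196 ± 55.7 CPM and switchgrass 212 ± 22.6 CPM (n = 2), and Avicel was below them by log2 fold changes of -1.43 ± 0.40 (adjusted p = 0.00814) and -1.54 ± 0.43 (adjusted p = 0.0123, edgeR). Cellobiose gave 499 ± 90.9 CPM, alfalfa stems 757 ± 313 CPM, reed canary grass 1102 ± 614 CPM and maltose 1824 ± 551 CPM, and Avicel was lower than each of these (highest adjusted p = 0.000148, edgeR).

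Locus1377v1rpkm77.71 had 190, 197 and 163 CPM on Avicel, against 1971, 2326 and 972 CPM on glucose. The Avicel libraries were alike, and glucose replicate 3 was the lowest glucose library. It averaged 183 ± 17.8 CPM on Avicel and 1756 ± 702 CPM on glucose (SD, n = 3 each), and its log2 fold change was -3.26 ± 0.60 (SE, adjusted p = 0.000332, edgeR quasi-likelihood test). Its level was 5.65 ± 0.82 TPM on Avicel and 76.5 ± 37.2 TPM on glucose.

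Among the other carbon sources Locus1377v1rpkm77.71 varied widely within groups. The cellobiose libraries held 1723, 942 and 220 CPM, the lowest in replicate 3, and the maltose libraries 2318, 3385 and 1476 CPM, again lowest in replicate 3. Avicel was below cellobiose by a log2 fold change of -2.39 ± 0.58 (adjusted p = 0.00743) and below maltose by -3.71 ± 0.61 (adjusted p = 9.39e-05, edgeR). The plant materials gave means of 230 CPM on switchgrass to 479 CPM on corn stover, and none of their differences from Avicel passed (lowest adjusted p = 0.0562, edgeR).

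**Figure D2:**
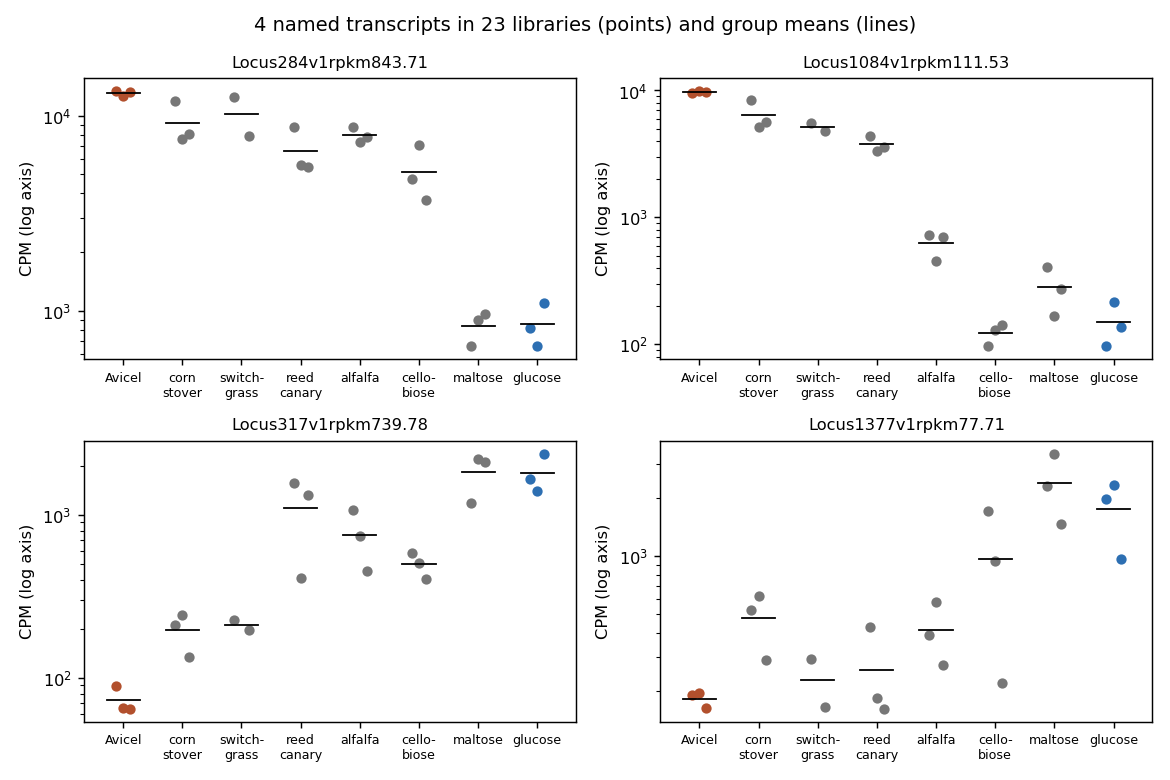
Scaled abundance (CPM, log axis) of the 4 named transcripts in the 23 libraries of N. californiae. Points are libraries and lines are group means, with Avicel red, glucose blue and the other carbon sources grey. Locus1084v1rpkm111.53 was high on Avicel and the grasses but not on cellobiose, where Locus284v1rpkm843.71 averaged 5152 CPM.

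The log2 fold changes on Avicel had a second mode, which was noticed after the values were seen. The histogram in steps of 0.25 peaked at 0 to 0.25, with 1665 transcripts, declined to 223 transcripts between -2.25 and -2, and peaked again at 349 between -3.25 and -3.00. The second mode held most of the transcripts called lower: 2312 of them, or 65.6%, were at least 4-fold lower on Avicel. Without glucose replicate 3 the second peak lay between -3.50 and -3.25, with 345 transcripts, and 2391 transcripts were at least 4-fold lower. The 2312 transcripts together held 0.66%, 0.63% and 0.63% of the counts of the Avicel libraries, against 8.99%, 9.0% and 4.73% of the glucose libraries. Their median levels were 0.588 CPM on Avicel and 5.58 CPM on glucose.

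As a set, these transcripts shifted in median level from library to library, and whether single transcripts moved together was not tested directly. This shift was examined in the 1246 of them that averaged at least 5 CPM on glucose. They were set beside 4811 transcripts of at least 5 CPM that were not called and changed less than 2-fold. Levels are given as the median log2 difference from the glucose mean, with 0.25 CPM added to each value. The distance between quartiles ran from 0.21 in glucose replicate 2 to 1.34 in switchgrass replicate 2 for the 1246 transcripts. For the 4811 it ran from 0.25 in glucose replicate 1 to 1.19 in switchgrass replicate 2. The 1246 transcripts stood at -2.96, -3.12 and -2.95 in the Avicel libraries, against 0.29, 0.20 and -0.72 in the glucose libraries. The 4811 transcripts stood at 0.03, 0.05 and 0.02 in the Avicel libraries, against -0.01 to 0.00 in the glucose libraries. Both sets were chosen by their change between Avicel and glucose, so this contrast between the sets follows from the choice. Glucose replicate 3 was the lowest glucose library for 91.1% of the 1246 transcripts and for 41.9% of the 4811. Both named losses are among the 1246, so they are not examples apart from this set. Locus1377v1rpkm77.71 was lowest in glucose replicate 3, at 972 CPM, and lowest in replicate 3 of cellobiose and maltose as well. Locus317v1rpkm739.78, by contrast, was highest in glucose replicate 3, at 2365 CPM. Set against glucose replicate 3 alone, the 1246 transcripts were 4.80-fold lower on Avicel at the median, and without that library they were 9.31-fold lower.

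To follow such transcripts in libraries that took no part in their choice, the set was chosen again from a fit of the 6 Avicel and glucose libraries alone, which gave 1275 transcripts at least 4-fold lower on Avicel, 1232 of them among the 1246, and 4508 uncalled ones. The levels remained on the scale of all 23 libraries. The medians of the 1275 transcripts were -0.31, -0.90 and -2.08 in cellobiose replicates 1, 2 and 3, and replicate 3 was the lowest of its group for 87.8% of them, against 40.7% of the 4508. In maltose they were 0.40, 0.65 and -0.19, with replicate 3 lowest for 77.8% of the 1275 transcripts and 29.6% of the 4508. In corn stover they were -0.97, -1.01 and -1.98, with replicate 3 lowest for 78.4% and 25.8%. Alfalfa stems gave -1.71, -0.75 and -1.93, with replicate 3 lowest for 60.9% and 30.3%, and replicate 2 highest for 84.7% and 28.8%. Reed canary grass gave -1.79, -2.06 and -2.47, with replicate 3 lowest for 50.7% and 22.3%, and switchgrass gave -2.03 and -2.56. Replicate 3 thus had the lowest median in 6 of the 7 groups of 3 libraries, glucose included and Avicel excepted, where replicate 2 did. The labels do not say what a replicate number shares across carbon sources. The medians of the 4508 transcripts stayed between -0.30 and 0.02 in the 23 libraries. TMM scaling, which aligns the bulk of transcripts between libraries, itself favours such a narrow range. No library outside the Avicel group reached the Avicel level of -2.95, which the choice of the set by its low Avicel levels itself favours. Whether these transcripts differ from the rest in function or origin was not tested, because the files carry no annotation. In such bulk libraries, fewer cells that hold a transcript and less RNA of it per cell cannot be told apart.

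**Figure D3:**
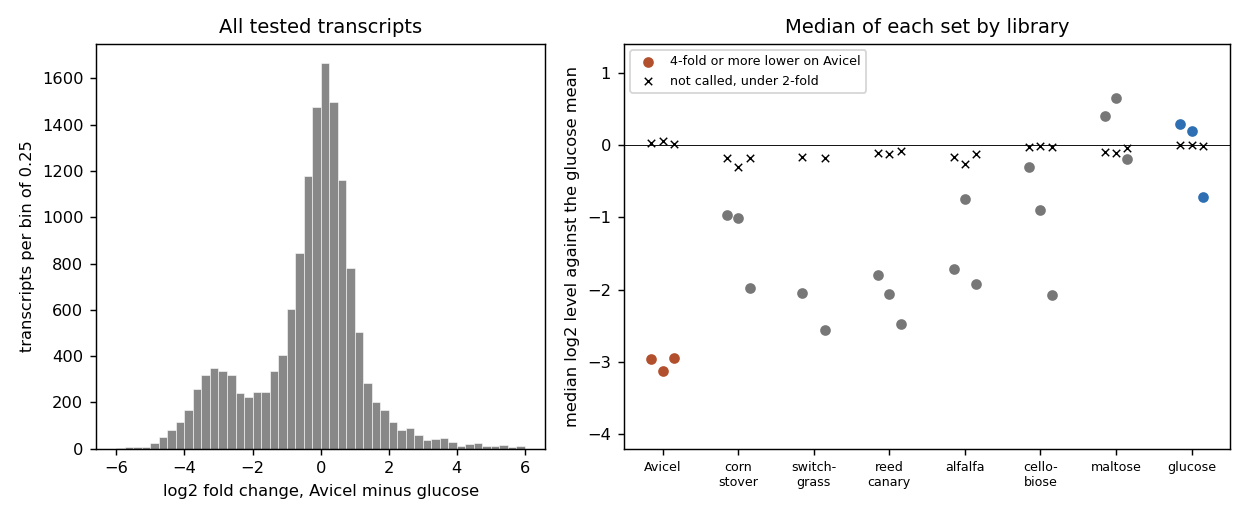
Left, number of tested transcripts per bin of 0.25 in log2 fold change on Avicel against glucose. Right, median log2 level against the glucose mean in each library for 1246 transcripts at least 4-fold lower on Avicel (dots; Avicel red, glucose blue) and 4811 uncalled transcripts (crosses); the dots spread within carbon sources, and the crosses stay between -0.31 and 0.05. TMM scaling itself favours the narrow range of the crosses.

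The direction of calls changed with abundance. The tested transcripts were divided into 5 classes of 2960 by their mean over 23 libraries. From the rarest class to the most abundant, the share called higher on Avicel was 5.61%, 7.53%, 10.4%, 19.0% and 32.8%. The share called lower was 32.3%, 28.3%, 25.4%, 19.6% and 13.5% in the same order. Among the 100 most abundant transcripts 36 were called higher and 2 lower, or 19 and 12 with library size alone and 41 and 1 without glucose replicate 3. Without that library the rarest class had 5.25% higher and 33.5% lower, and the most abundant 33.2% and 12.8%. The order of the classes remained with library size alone for the higher calls of the 3 most abundant classes, at 4.22%, 7.09% and 15.2%. On that scale, however, 957 transcripts of the most abundant class were called lower and 451 higher, so the excess of higher calls there was present under TMM scaling and absent with library size alone.

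**Figure D4:**
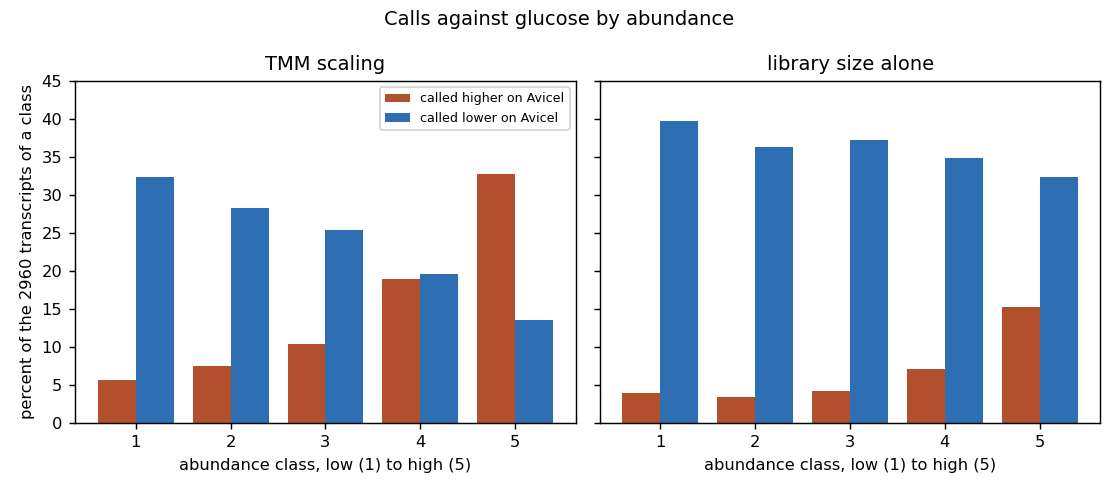
Percent of the 2960 transcripts of each abundance class called higher (red) and lower (blue) on Avicel against glucose. Under TMM scaling (left) higher calls exceed lower calls in class 5, at 32.8% against 13.5%, and with library size alone (right) they do not, at 15.2% against 32.3%.

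The concentration of counts in few transcripts was measured per library. The 100 most abundant transcripts of each library held 41.4%, 40.3% and 41.1% of counts on Avicel, against 34.0%, 32.1% and 38.9% on glucose. The groups did not overlap, and their means of 40.9% ± 0.57 and 35.0% ± 3.50 (SD, n = 3 each) gave a two-sided exact permutation p of 0.1, the smallest that 3 against 3 libraries allow. In TPM the same share was 42.7% on Avicel and 40.2% on glucose (exact permutation p = 0.3), and there the groups overlapped. They also overlapped for the 10 most abundant transcripts, which held 12.8%, 13.3% and 13.2% of counts on Avicel, against 9.92%, 9.10% and 13.2% on glucose (exact permutation p = 0.2). When each library was thinned to 3334202 reads, 16600, 16649 and 16741 transcripts had at least 1 read on Avicel, against 18289, 18881 and 18209 on glucose (exact permutation p = 0.1). Fewer transcripts were thus detected in every Avicel library than in any glucose library. Transcripts detected at 5 reads or more averaged 11473 ± 38.7 on Avicel and 13708 ± 478 on glucose (exact permutation p = 0.1). Glucose replicate 3 was the glucose library nearest to Avicel in the shares of the 10 and the 100 and in both counts of detected transcripts.

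Gains on Avicel were concentrated in fewer transcripts than losses. The summed gain was 409519 CPM and the summed loss 104910 CPM, sums that depend on the scaling and were taken under TMM alone. Of the summed gain in mean CPM over all tested transcripts that were higher on Avicel, called or not, 10 transcripts held 19.9% and 100 held 53.0%. Of the summed loss, 10 held 12.4% and 100 held 42.2%. These shares were 19.8%, 53.2%, 12.4% and 42.7% without glucose replicate 3. For comparison, the 100 most abundant transcripts of each Avicel library held 40.9% of its counts on average. Ranked by mean TPM, 76 transcripts were among the 100 highest on both carbon sources. Of the 100 highest on Avicel, 54 were called higher and 0 lower, and of the 100 highest on glucose, 30 were called higher and 2 lower. Over all tested transcripts 15.1% were called higher and 23.8% lower, and a ranking by Avicel levels itself favours higher calls. Without glucose replicate 3, 77 were shared, 61 of the Avicel list were called higher, and 40 and 2 of the glucose list were called higher and lower. All of the 100 highest on glucose were among the 1000 highest on Avicel, whereas 3 of the 100 highest on Avicel ranked below 1000 on glucose.

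As groups, the called transcripts were followed through the other carbon sources, as a description. The 2228 transcripts called higher held 49.6% ± 0.53 of counts on Avicel, 43.8% on corn stover, 45.4% on switchgrass, 42.5% on reed canary grass, 45.9% on alfalfa stems, 39.3% on cellobiose, 28.7% on maltose and 28.7% ± 1.97 on glucose (SD, n = 3). The 3526 called lower held 3.08% ± 0.20 on Avicel, 6.48% on corn stover, 5.34% on switchgrass, 6.69% on reed canary grass, 6.54% on alfalfa stems, 8.90% on cellobiose, 16.4% on maltose and 14.6% ± 3.42 on glucose. Maltose thus stood with glucose in both sets, and every other carbon source stood between. In TPM the higher set held 51.7% on Avicel and 33.4% on glucose, and the lower set held 1.58% and 7.56%. The lower set held 10.7% of counts in glucose replicate 3, the lowest of the glucose libraries. Without that library, the 2139 transcripts called higher held 54.6% on Avicel and 31.2% on glucose, and the 3515 called lower held 3.04% and 16.6%.

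**Figure D5:**
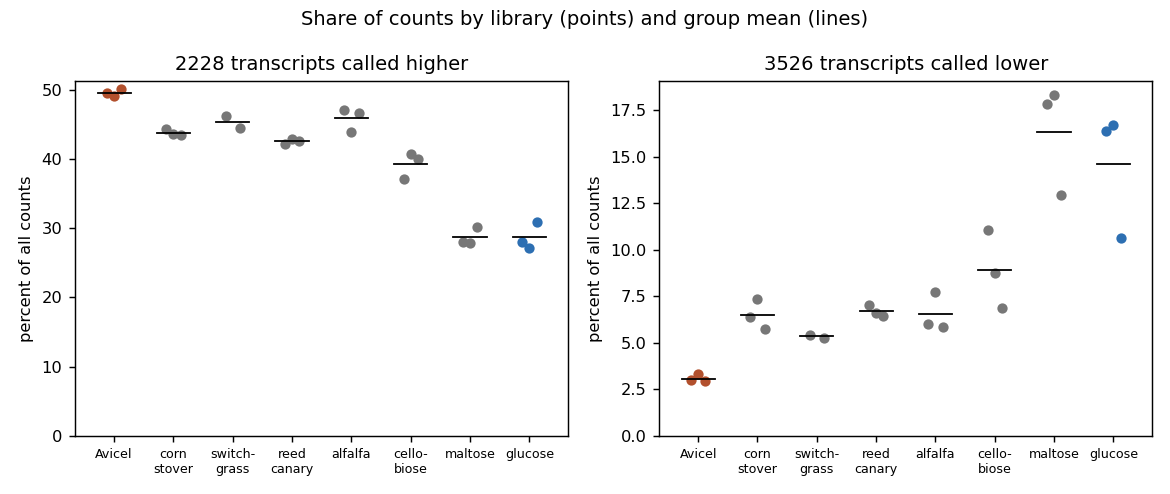
Percent of all expected counts held by the 2228 transcripts called higher (left) and the 3526 called lower (right) on Avicel against glucose, in each library (points) with group means (lines). The higher set held 49.6% on Avicel and 28.7% on glucose, and the lower set 3.08% and 14.6%.

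The intermediate standing of the other carbon sources differed between the sets. On the log2 scale, alfalfa stems lay nearer to the Avicel mean than to the glucose mean for 62.1% of the transcripts called higher and 50.6% of those called lower. Switchgrass did so for 57.4% and 73.9%, reed canary grass for 48.6% and 70.6%, and corn stover for 50.5% and 45.4%. On cellobiose the shares were 44.4% and 30.7%, and on maltose 4.13% and 1.28%. The shares were higher throughout without glucose replicate 3, and for the lower set corn stover stood at 54.2%, alfalfa stems at 61.5% and cellobiose at 41.8%. These sets were chosen on the glucose libraries among others, so the shares describe them and test nothing.

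Avicel was also set directly against the other carbon sources in the same edgeR test. Numbers of calls are given for 5 of them, and the number against alfalfa stems is not reported here. Against cellobiose 991 transcripts were higher (6.70% of those tested) and 2036 lower (13.8%). Against reed canary grass 1723 were higher (11.6%) and 1636 lower (11.1%). Against switchgrass, with 2 libraries, 1789 were higher (12.1%) and 1906 lower (12.9%). Corn stover gave more calls, at 2660 higher (18.0%) and 3154 lower (21.3%). Maltose gave 2467 higher (16.7%) and 3871 lower (26.2%), close in number to the calls against glucose. These comparisons share the Avicel libraries.

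The share called lower was smallest among the shortest transcripts, and the share called higher showed no single trend with length. Relative length was taken from the ratio of expected count to TPM, since the files give none, and was obtained for 13807 tested transcripts. In the shortest of 5 classes 512 transcripts were called higher and 510 lower, and in the longest 502 and 727. With library size alone 252 of the shortest (9.12%) and 168 of the longest (6.08%) were called higher. The counts without glucose replicate 3 were 512 higher and 500 lower in the shortest class, and 467 and 737 in the longest.

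Few changes in the use of transcript versions were called. The identifiers give several versions for some loci, and 697 loci had at least 2 tested versions. Of 1515 versions tested, 29 (1.91%) changed by another factor than the rest of their locus, in 26 loci (edgeR diffSpliceDGE, adjusted p under 0.05), 13 with a higher share of the locus on Avicel and 16 with a lower share. That count was 10 to 22 when 1 library was left out and 18 without the filter on low counts. Before adjustment, 134 of the 1515 versions had a p under 0.05 (edgeR diffSpliceDGE). With 3 libraries a group, changes in version use can be missed. By the transcript test, 56 of the 697 loci had every tested version called higher, 48 had every one called lower, 379 had none called and 6 had versions called in opposite directions. Reads shared between versions are divided by estimate, so single versions are uncertain.

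The 3 loci with the lowest adjusted p for version use are described by their shares. In the first, with 6 tested versions, 1 version whose identifier ends in PRE, a mark not explained in the sources used here, held 2.96%, 2.44% and 2.95% of the locus on Avicel, against 0.0123%, 0.00412% and 0.0261% on glucose (adjusted p = 8.48e-15, edgeR diffSpliceDGE). The first version of that locus held 94.6% on Avicel and 98.0% on glucose. In another locus the second version held 4.83% ± 0.735 on Avicel and 36.9% ± 4.71 on glucose (SD, n = 3 each; adjusted p = 5.72e-07, edgeR diffSpliceDGE), although its own level was higher, at 81.1 CPM on Avicel and 19.9 CPM on glucose. In the last of them the second version held 8.40%, 7.87% and 5.56% on Avicel, against 57.8%, 55.8% and 33.8% on glucose, the lowest in replicate 3 (adjusted p = 7.54e-05, edgeR diffSpliceDGE). That second version fell to 6.24 CPM on Avicel, against 46.4 CPM on glucose, and the first version was called higher, at 80.2 CPM on Avicel and 45.4 CPM on glucose.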

How the data were processed

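The authors deposited expected counts and TPM per transcript for each library. The expected counts were estimated with RSEM, per the submitters' processing notes, which give no version, and the deposited TPM correct them for transcript length and for depth. The aligner and genome build: not given in the sources used here. Libraries were made with the TruSeq Stranded mRNA kit, per the labels' protocols, and sequenced on a NextSeq. Among the expected counts 10.2% were not whole (tolerance 1e-09), and all were rounded. The table holds 29649 transcripts of 27671 loci. filterByExpr of edgeR 4.0.16 in R 4.3.3 (minimum count 10, minimum total 15) kept 14800, with 99.8% of counts. After TMM scaling, a robust quasi-likelihood model with 1 mean per carbon source was fitted to all 23 libraries, since 3 libraries a group estimate the spread poorly. The biological coefficient of variation was 0.29. Within each contrast, Benjamini-Hochberg adjustment ran over all tested transcripts. Folds of transcripts without counts in a group were taken against 3 counts over the group. The steps were tested on simulated data in which a small set of the more abundant transcripts changed, with equal numbers up and down. That setting does not cover the many rare transcripts that were lower on Avicel. Version use was tested with diffSpliceDGE on the same fit.

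Named transcripts were the 2 highest and 2 lowest by difference in mean CPM among those called, changed at least 2-fold, without overlap of the groups and the only version of their locus. The set around the second mode was chosen after its values were seen, as were its repeat from 6 libraries and the descriptions without glucose replicate 3. Members, rules and sets were all chosen with earlier results of these data known. The alternatives were DESeq2 1.42.0, its size factors, library size alone, no filter, a 2-fold threshold, the replicate number as a block, other sets of libraries and locus sums. Permutation tests used scipy 1.17.1. Counting precision follows from the library totals. No gene list was tested, because the identifiers could not be matched to names.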

Additional observations from a re-analysis of the deposited data

How the results depend on the processing

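The 4 named transcripts remained called in the same direction under all 17 alternatives tried for each. The counts of called transcripts moved by more than 1.5 times under these: library size alone gave 1002 higher and 5340 lower, and the 2-fold threshold gave 2791 calls, 662 higher and 2129 lower. With alfalfa stems replicate 1 as the TMM standard, an alternative chosen after seeing the data, the 2-fold threshold gave 2699 calls, 820 higher and 1879 lower. TMM picks its standard from the libraries present, so the standard also changed with locus sums and without Avicel replicate 1 or 2. Calls by DESeq2 numbered 5896, of which 2575 were higher and 3321 lower. Leaving out 1 Avicel or glucose library gave 4368 to 5654 calls, 1555 to 2715 higher and 2650 to 3515 lower. With library size alone 19 of the 100 most abundant transcripts were called higher, and 168 of the longest class.

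The replicate block gave 5909 calls, 2347 higher and 3562 lower, and 29 version calls. Same-numbered Avicel and glucose libraries did not deviate together (correlations of -0.066 to -0.007), and no Avicel library correlated best with its own number, so these libraries were not treated as paired. In the set around the second mode, however, replicate 3 had the lowest median in 6 of 7 groups of 3 libraries. The block moved no count by over 1.5 times. Version calls were 18 without the filter on low counts and 10 to 22 without 1 library, and moved by over 1.5 times without each of 5 libraries (14, 10 and 17 without Avicel replicate 1, 2 and 3, and 14 and 12 without glucose replicate 1 and 2). In TPM the higher set held 51.7% on Avicel. With 3 libraries a group the exact tests cannot go below 0.1, and without 1 library not below 0.2. The detection difference then ran from -1922 to -1586 transcripts, and that of the top 100 share from 4.46 to 7.86 percentage points. Transcripts under the filter were not tested, and the depth of 3334212 counts in glucose replicate 1 limits detection of rare ones.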
